A study of Mus musculus with 8 samples.

Results

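The troponin genes are the 8 genes of the deposited table named *Tnnt1*, *Tnnt2*, *Tnnt3*, *Tnni1*, *Tnni2*, *Tnni3*, *Tnnc1* and *Tnnc2*, chosen by name among 41709 genes. Their mRNA levels were measured by RNA-seq in 8 whole muscles, the tibialis anterior (TA) of either leg of male C57BL/6J mice at 3 months of age, 7 days after electroporation. One leg of each of 4 mice received a SMARTpool of *Uba1* siRNAs and the other leg non-targeting (NT) siRNAs, at 1500 pmol in 30 μl. UBA1 is the E1 enzyme that activates ubiquitin. Equal replicate numbers mark the legs of 1 mouse. All NT muscles carry the letter R in their titles and all *Uba1* muscles the letter L, so that leg and siRNA cannot be told apart. The treatment tags name UBA2, UBA3 and UBA4 for *Uba1* replicates 2, 3 and 4, whereas the titles name UBA1, and the muscles were grouped by title. A whole muscle holds fibers whether or not siRNA reached them, and it also holds vessels, nerve and connective tissue. In such bulk samples, fewer cells of a type and less RNA per cell cannot be told apart.

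Troponin is the calcium switch of the thin filament. Troponin C binds calcium, troponin I holds the filament in the inhibited state, and troponin T ties the complex to tropomyosin. Fast fibers use *Tnnt3*, *Tnni2* and *Tnnc2*, whereas slow fibers use *Tnnt1*, *Tnni1* and *Tnnc1*. The heart shares *Tnnc1* with slow fibers and has its own troponin T and troponin I, *Tnnt2* and *Tnni3*. Embryonic and regenerating skeletal muscle also transcribes *Tnnt2* and *Tnni1*. The mouse TA is a predominantly fast muscle.

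In GRCm39 (GENCODE M39), genes for troponin I and troponin T lie near each other on the same strand, in 3 pairs. *Tnni2* (chr7:141995545-141998147, plus strand) lies 50.5 kb before *Tnnt3* (chr7:142048605-142070280, plus strand), a fast pair with the coding gene *Lsp1* between them. *Tnni1* (chr1:135707172-135738727, plus strand) lies 25 kb before *Tnnt2* (chr1:135763738-135780315, plus strand), a slow and a cardiac gene with the coding gene *Lad1* between them. *Tnni3* (chr7:4521300-4527228, minus strand) lies 1.9 kb before *Tnnt1* (chr7:4507567-4519381, minus strand) in the direction of transcription, again a cardiac and a slow gene, with no coding gene wholly between them. The troponin C genes *Tnnc1* (chr14:30930232-30933708, plus strand) and *Tnnc2* (chr2:164619075-164621887, minus strand) stand on chromosomes of their own. Several members overlap other genes. *Tnnc1* overlaps *Nisch*, *Tnnc2* overlaps *Ube2c*, *Tnnt3* overlaps *Prr33* and *Tnnt1* overlaps the long non-coding RNA *Gm73143*, each on the opposite strand, while *Tnni3* overlaps *Dnaaf3* on its own strand. The library kit does not mark strand, so reads from such overlaps may have been counted for either gene.

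Promoter sequences from RefSeq (GRCm38.p6) matched 6 of the 8 members, all but *Tnnt3* and *Tnni2*. The 250 bases before the first listed start site are shown for the 3 genes whose mRNA varied most between muscles, *Tnni1*, *Tnnt1* and *Tnnt2*, with those of the steady fast gene *Tnnc2* for contrast. Capitals mark 3 motifs searched on both strands. They are the E-box CANNTG, read by MyoD and myogenin, the MCAT element CATTCC, read by TEAD factors, and the TATA box TATAAA.
Tnni1 (chr1:135799171-135799420, plus strand): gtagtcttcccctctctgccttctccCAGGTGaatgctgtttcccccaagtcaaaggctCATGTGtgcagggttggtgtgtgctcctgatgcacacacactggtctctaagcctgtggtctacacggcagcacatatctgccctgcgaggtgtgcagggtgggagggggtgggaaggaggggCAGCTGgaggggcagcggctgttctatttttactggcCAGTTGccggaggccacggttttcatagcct
Tnnt1 (chr7:4515976-4516225, minus strand): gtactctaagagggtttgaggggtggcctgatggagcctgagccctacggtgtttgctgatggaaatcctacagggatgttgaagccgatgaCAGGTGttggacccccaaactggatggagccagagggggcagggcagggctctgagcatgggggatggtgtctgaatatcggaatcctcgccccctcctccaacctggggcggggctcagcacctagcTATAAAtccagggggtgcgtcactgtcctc
Tnnt2 (chr1:135836084-135836333, plus strand): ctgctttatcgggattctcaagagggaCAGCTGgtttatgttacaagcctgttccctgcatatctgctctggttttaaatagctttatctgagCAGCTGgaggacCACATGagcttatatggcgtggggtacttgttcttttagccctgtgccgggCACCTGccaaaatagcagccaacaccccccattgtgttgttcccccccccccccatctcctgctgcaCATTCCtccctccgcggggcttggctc
Tnnc2 (chr2:164779735-164779984, minus strand): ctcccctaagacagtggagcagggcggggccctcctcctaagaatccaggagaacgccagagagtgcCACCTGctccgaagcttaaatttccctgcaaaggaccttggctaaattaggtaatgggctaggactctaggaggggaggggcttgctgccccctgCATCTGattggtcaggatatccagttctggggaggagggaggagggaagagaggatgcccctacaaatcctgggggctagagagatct
The *Tnni1* window held 4 E-boxes, the *Tnnt2* window 4 E-boxes and 1 MCAT element, the *Tnnt1* window 1 E-box and a TATA box that begins 30 bases before the start, and the *Tnnc2* window 2 E-boxes. A second start site is listed for *Tnni1*, with 2 E-boxes, and for *Tnnt2*, with 1 E-box and no MCAT element, so these counts depend on the site. Among 27025 promoters of this length, 66.0% held an E-box, 12.6% an MCAT element and 13.0% a TATA box. An E-box was thus present in most promoters. These are matches of letters, not sites of binding.

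In TPM, the fast mRNAs lay far above the slow and cardiac ones. TPM divide reads by a length for each gene, and these lengths are not given in the sources used here. The order between genes therefore also rests on the lengths used. In NT replicate 1, *Tnnc1* had 9.26 TPM on 152 reads and *Tnnt2* 2.06 TPM on 252 (smallest whole numbers that fit). The fast genes *Tnnt3*, *Tnnc2* and *Tnni2* stood highest, at 6941 TPM or more, followed by *Tnnt1*, *Tnni1*, *Tnnc1*, *Tnnt2* and *Tnni3*. *Tnnt3* exceeded *Tnnc2* in 6 of 8 muscles with overlapping ranges, so this step lay within their spread. *Tnnc2* exceeded *Tnni2* in all 8 muscles with a median ratio of 2.13, and *Tnni2* exceeded *Tnnt1* with a median ratio of 546. *Tnnt1* exceeded *Tnni1* in 8 of 8 muscles by a median of 1.71-fold, although the ranges overlapped over muscles. *Tnni1* exceeded *Tnnc1* in 6 of 8, also with overlapping ranges. *Tnnc1* exceeded *Tnnt2* in 8 of 8, with ranges that overlapped only among the NT muscles, and *Tnnt2* exceeded *Tnni3* in 8 of 8 without overlap. Together the 8 genes took 3.53% to 4.63% of all TPM, and 7.10% to 8.14% after the transcripts of the mitochondrial genome were set aside.

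**Figure D1:**
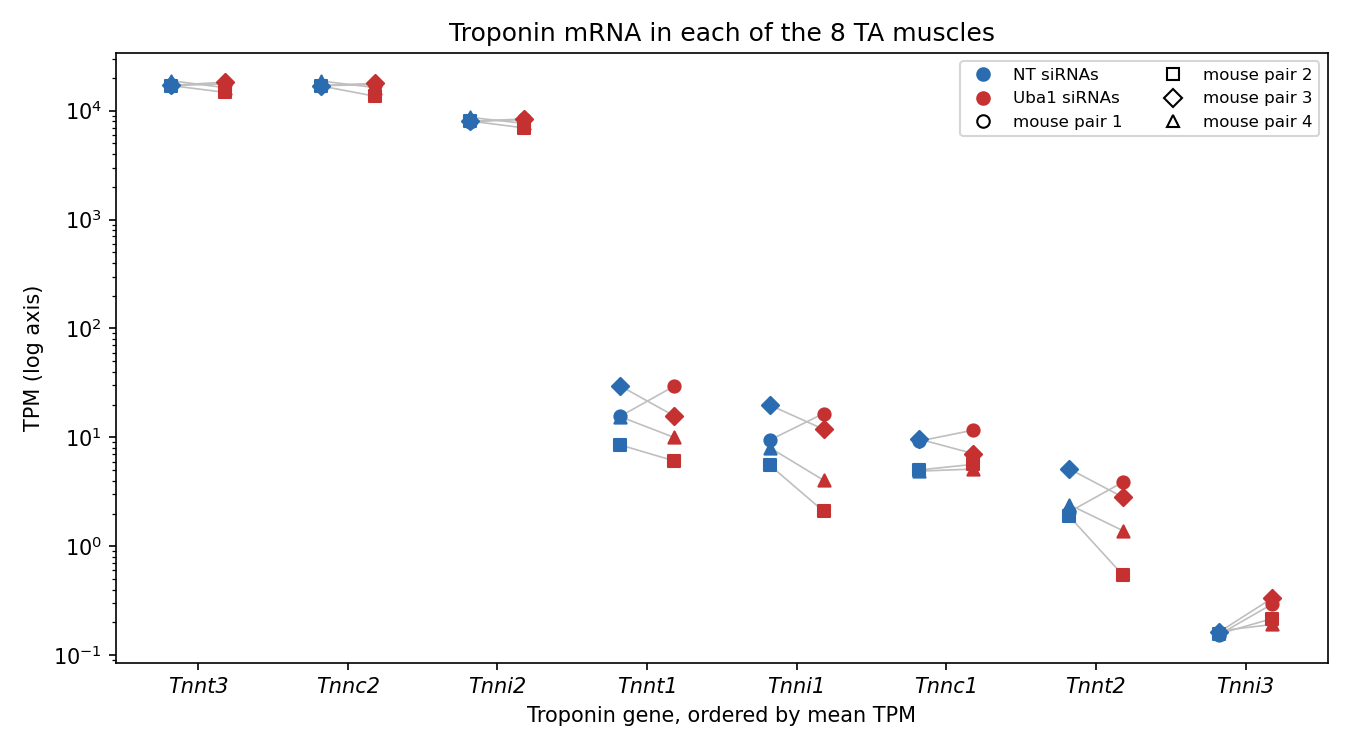
TPM (log axis) of the 8 troponin genes in each of the 8 TA muscles, with NT siRNAs in blue and Uba1 siRNAs in red. Marker shapes give the mouse pair and gray lines join the legs of 1 mouse. The fast genes lie between 6941 and 18838 TPM, and every slow or cardiac gene lies at or below 29.7 TPM.

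The markers of the muscle matched its label. The 12 fast-fiber genes summed to 92294 to 108005 TPM in NT muscles and 71748 to 106393 TPM in *Uba1* muscles, and the 13 slow-fiber genes to at most 1449 TPM in any muscle. Of 8 cardiomyocyte markers, *Nppb*, *Gata4* and *Nkx2-5* were listed at 0 in all 8 muscles, and the whole list summed to 0.861 to 1.91 TPM. The targeted gene *Uba1* lay at 59.0 to 63.6 TPM in NT muscles and at 6.77 to 23.1 TPM in *Uba1* muscles. It narrowly missed the adjusted p used below (limma adjusted p = 0.0527) and passed it with median-ratio scaling (limma adjusted p = 0.0316) and with the mouse as block (limma adjusted p = 0.0278). *Uba1* replicate 2 had the highest mitochondrial share (50.3% of TPM, against 39.9% to 46.5% in the others) and the lowest mean correlation with the other muscles (r = 0.985 across genes).

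None of the 7 troponin mRNAs above the filter on low values passed the test between *Uba1* siRNAs and NT siRNAs, and the eighth, *Tnni3*, was below that filter. Of the 8 genes, 7 were at 1 TPM or more in at least 4 muscles and were tested with limma on log2(TPM + 1), together with all 11530 such genes. None passed an adjusted p of 0.05 and none passed an unadjusted p of 0.05 in either direction. Over all genes tested, 0.0260% passed the adjusted p, while 16.0% were higher and 1.98% lower at the unadjusted p. Only *Tnnc1* had a log2 fold change (log2FC) above 0, against 81.8% of all genes tested. Differences are *Uba1* minus NT and, on this scale, understate the change of low genes. The median log2FC of all genes was 0.11, and it moved to -0.01 when TPM were rescaled by median ratios. On that scale 0 of the 7 troponin genes and 48.0% of all genes were above 0.

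**Figure D2:**
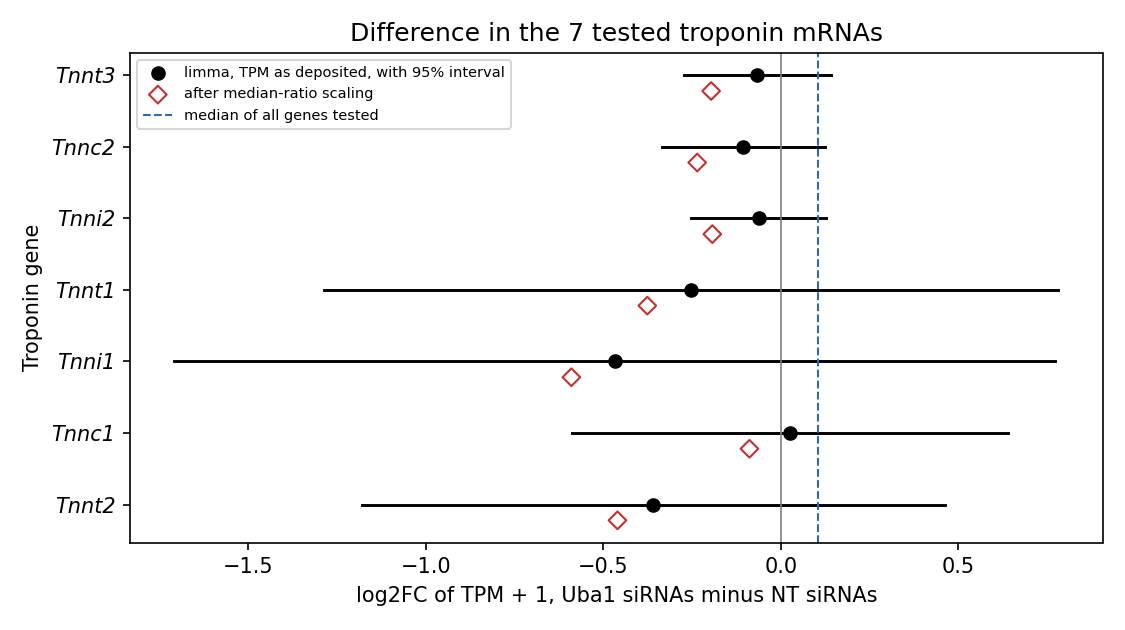
log2FC of TPM + 1 (Uba1 siRNAs minus NT siRNAs) for the 7 tested troponin genes, as black points with 95% limma intervals, and after median-ratio scaling as open red diamonds. Every interval spans 0. The dashed blue line is the median of all genes tested (0.11).

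Fast troponin T, *Tnnt3*, was at 16956, 16982, 17089 and 18838 TPM in NT replicates 1 to 4, and at 17658, 14725, 18272 and 16263 TPM in the *Uba1* muscles of the same mice. The groups overlapped, with NT replicate 4 the highest and *Uba1* replicate 2 the lowest. Its mean was 17466 ± 916 TPM in NT muscles and 16730 ± 1579 TPM in *Uba1* muscles (SD, n = 4 each), with a log2FC of -0.07 (95% interval -0.27 to 0.14, limma adjusted p = 0.700). Fast troponin I, *Tnni2*, was at 7947, 8019, 7959 and 8666 TPM in NT muscles and at 8299, 6941, 8406 and 7636 TPM in *Uba1* muscles. The same muscles were highest and lowest, and the log2FC of *Tnni2* was -0.06 (95% interval -0.25 to 0.13, limma adjusted p = 0.688). Fast troponin C, *Tnnc2*, was at 16995, 16865, 17010 and 18717 TPM in NT muscles and at 17289, 13583, 17809 and 16309 TPM in *Uba1* muscles. Again NT replicate 4 was the highest and *Uba1* replicate 2 the lowest. Its log2FC was -0.10 (95% interval -0.33 to 0.12, limma adjusted p = 0.576). After median-ratio scaling the log2FC were -0.20 for *Tnnt3*, -0.19 for *Tnni2* and -0.24 for *Tnnc2*. With the legs of each mouse compared, the 3 fast genes were slightly higher with *Uba1* siRNAs in pairs 1 and 3 and lower in pairs 2 and 4.

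The fast genes varied little relative to one another, and *Tnni2* and *Tnnt3* least. The ratio of *Tnni2* to *Tnnt3* stayed between 0.460 and 0.472 over the 8 muscles. It was 0.467 ± 0.00517 in NT muscles and 0.468 ± 0.00518 in *Uba1* muscles (SD, n = 4 each). The ratio of *Tnnc2* to *Tnnt3* ran from 0.922 in *Uba1* replicate 2 to 1.00, and was 0.996 ± 0.00426 against 0.970 ± 0.0339, with a wider spread among the *Uba1* muscles. Profiles were compared as the root mean square (RMS) difference between the centered log2(TPM + 1) values of 2 genes over the 8 muscles, a description in which the points share their libraries. By this measure, no other gene tested was closer to *Tnnt3* than *Tnni2* (RMS 0.014, with a median of 0.164 over all genes), and none was closer to *Tnnc2* than *Tnnt3* (RMS 0.0371).

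Slow troponin T and slow troponin I varied several-fold between muscles, within both groups. *Tnnt1* was at 15.6, 8.53, 29.7 and 15.5 TPM in NT replicates 1 to 4 and at 29.5, 6.09, 15.8 and 10.0 TPM in *Uba1* replicates 1 to 4. The groups overlapped almost entirely, with NT replicate 3 and *Uba1* replicate 1 the highest and *Uba1* replicate 2 the lowest. Its mean was 17.3 ± 8.89 TPM in NT muscles and 15.3 ± 10.2 TPM in *Uba1* muscles (SD, n = 4 each), with a log2FC of -0.25 (95% interval -1.29 to 0.78, limma adjusted p = 0.768). *Tnni1* was at 9.44, 5.56, 19.8 and 8.06 TPM in NT muscles and at 16.6, 2.10, 11.9 and 4.04 TPM in *Uba1* muscles. The same muscles were highest and lowest, over a range of 9.44-fold. Its log2FC was -0.47 (95% interval -1.71 to 0.77, limma adjusted p = 0.645). With 1 muscle left out, it ran from -0.86 without *Uba1* replicate 1, over -0.15 without NT replicate 3, to -0.03 without *Uba1* replicate 2. Intervals of this width hold both a 2-fold change and none, so 4 muscles a group could not resolve it. The direction of *Tnnt1* turned to 0.04 without NT replicate 3 and to 0.08 without *Uba1* replicate 2.

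The troponin C of slow fibers and heart, *Tnnc1*, was less variable. It was at 9.26, 5.02, 9.63 and 4.90 TPM in NT muscles and at 11.7, 5.65, 7.10 and 5.12 TPM in *Uba1* muscles, a range of 2.38-fold with both groups spread over it. Its log2FC was 0.03 (95% interval -0.59 to 0.64, limma adjusted p = 0.962), and its sign turned with median-ratio scaling (-0.09). *Nisch*, the gene it overlaps, was at 13.0 to 21.1 TPM.

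Cardiac troponin T, *Tnnt2*, was at 2.06, 1.90, 5.15 and 2.42 TPM in NT muscles and at 3.88, 0.544, 2.83 and 1.39 TPM in *Uba1* muscles. NT replicate 3 was the highest and *Uba1* replicate 2 the lowest, as for *Tnnt1* and *Tnni1*, and the range of 9.47-fold was as wide as that of *Tnni1*. Its log2FC was -0.36 (95% interval -1.18 to 0.46, limma adjusted p = 0.595). It was -0.59 with a pseudocount of 0.1, and with 1 muscle left out it ran from -0.61 without *Uba1* replicate 1 to -0.11 without NT replicate 3 and -0.06 without *Uba1* replicate 2. The TPM of a gene with few reads are whole multiples of what 1 read is worth, and the smallest whole numbers that fit were 252, 228, 598 and 272 reads in NT muscles and 444, 66, 317 and 164 in *Uba1* muscles. The extremes of 598 reads (95% exact Poisson interval 551 to 648) and 66 reads (51.0 to 84.0) lay far apart. Such intervals cover counting error only.

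Cardiac troponin I, *Tnni3*, which inhibits contraction in the adult heart, was near the floor of the measurement and below the filter of the limma test. It was at 0.154, 0.157, 0.162 and 0.167 TPM in NT muscles and at 0.296, 0.217, 0.335 and 0.191 TPM in *Uba1* muscles. The groups did not overlap, and the exact permutation test gave a two-sided p of 0.0286, the lowest possible with 4 muscles a group. Among the 21532 genes above 0 in at least 1 muscle, 6.88% were higher in every *Uba1* muscle than in every NT muscle. Without the filter, limma gave a log2FC of 0.12 (unadjusted p = 0.016, limma adjusted p = 0.285 over 21532 genes). The smallest whole numbers of reads that fit *Tnni3* were 5 in each NT muscle and 9, 7, 10 and 6 in the *Uba1* muscles. If these were the reads, counting error alone is wide for a single muscle, with 95% exact Poisson intervals of 1.62 to 11.7 for 5 reads and 4.80 to 18.4 for 10 reads. *Dnaaf3*, which overlaps it on the same strand, was at 0.0863 to 0.590 TPM, highest in *Uba1* replicates 1 and 3 as *Tnni3* was, and its part in the reads was not tested.

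Differences between the legs of 1 mouse followed a shared pattern in *Tnni1*, *Tnnt1* and *Tnnt2*. In pairs 1 to 4, log2(TPM + 1) of *Tnni1* differed by 0.75, -1.08, -0.69 and -0.85 between the *Uba1* leg and the NT leg. Pair 1 was opposite to the other pairs. For *Tnnt1* the differences were 0.88, -0.43, -0.87 and -0.59, and for *Tnnt2* they were 0.67, -0.91, -0.69 and -0.51. These 3 genes were thus higher in the *Uba1* leg of pair 1 and lower in that of pairs 2, 3 and 4. *Tnnc1* did not share this order, with 0.30, 0.14, -0.39 and 0.05, nor did *Tnni3*, with 0.17, 0.07, 0.20 and 0.03. With the mouse as replicate block, the standard error of *Tnni1* shrank from 0.55 to 0.27, but its limma adjusted p was 0.304 and none of the 7 genes passed. The block raised the number of all genes past the adjusted p from 3 to 57 (0.494%), and with it 22.4% of all genes were higher and 2.80% lower at the unadjusted p.

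**Figure D3:**
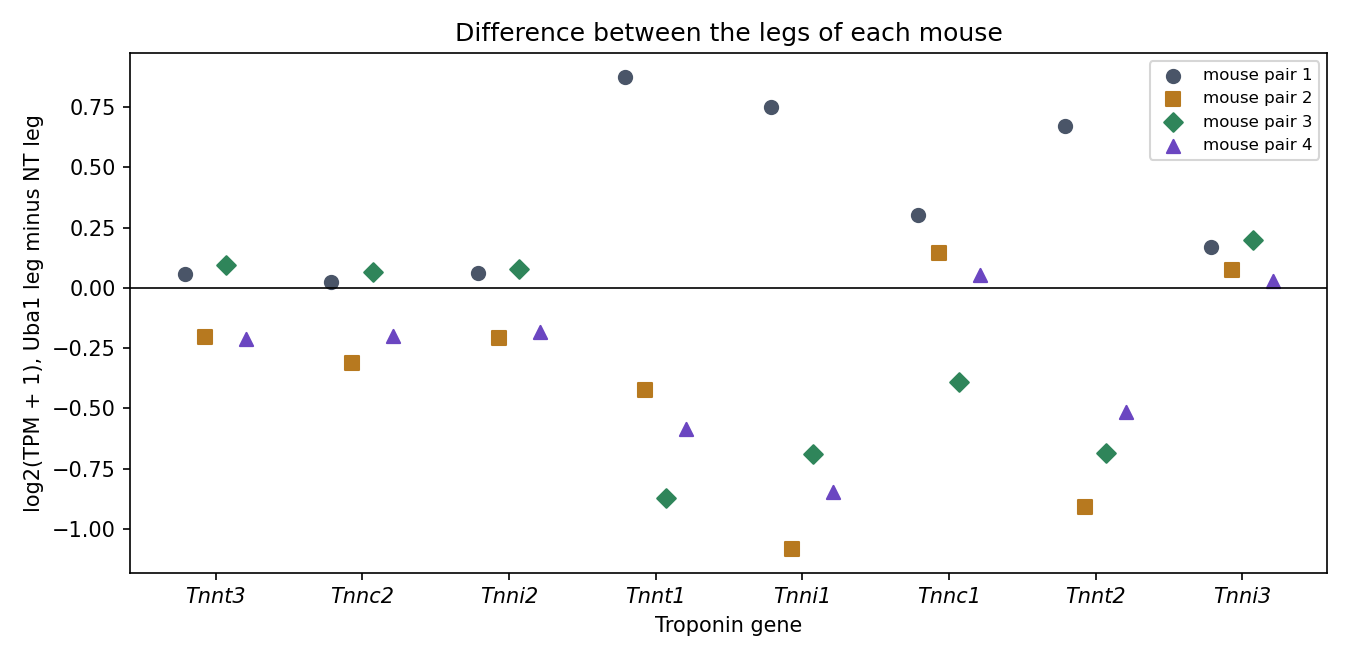
Difference in log2(TPM + 1) between the Uba1 leg and the NT leg of each mouse for the 8 troponin genes, 1 marker per mouse pair. For Tnnt1, Tnni1 and Tnnt2, pair 1 lies between 0.67 and 0.88 and the other pairs between -0.43 and -1.08, while the fast genes stay between -0.31 and 0.10.

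Within each subunit, slow and cardiac forms were a small part of the TPM in every muscle. *Tnnt1* made up 0.0994% ± 0.0525 of the troponin T TPM in NT muscles and 0.0889% ± 0.0549 in *Uba1* muscles (SD, n = 4 each). *Tnni1* made up 0.132% ± 0.0798 against 0.106% ± 0.0785 of troponin I. *Tnnc1* made up 0.0417% ± 0.0160 against 0.0450% ± 0.0155 of troponin C. For each of these the difference between groups was smaller than the SD within them. *Tnnt2* took 0.0166% ± 0.00905 against 0.0124% ± 0.00798 of troponin T, also a difference smaller than the SD. *Tnni3* took 0.00196% ± 4.84e-05 against 0.00329% ± 0.000629 of troponin I, without overlap, on the same 5 to 10 fitted reads a muscle as its TPM.

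The profiles of *Tnni1*, *Tnnt1* and *Tnnt2* over the muscles were then set beside those of every gene tested that is not a troponin. Of these, the genes nearest to *Tnni1* were *Mymk*, the myoblast fusion protein myomaker (RMS 0.200), and *Myl4*, the embryonic and atrial essential light chain of myosin (RMS 0.268), against a median of 0.837 over all genes. *Mymk* was at 6.63, 4.32, 17.2 and 4.74 TPM in NT muscles and at 9.64, 1.06, 9.33 and 1.96 TPM in *Uba1* muscles. *Tnnt1* was nearest to *Krt8*, a keratin (RMS 0.191), and *Lincmd1*, a long non-coding RNA of differentiating myoblasts (RMS 0.286), with a median of 0.679. *Tnnt2* was nearest to the imprinted gene *Peg3* (RMS 0.173) and the tubulin gene *Tubb2b* (RMS 0.189), with a median of 0.558. Among the troponins themselves, *Tnnt1* was nearest both to *Tnni1* (RMS 0.268) and to *Tnnt2* (RMS 0.249), closer than *Lincmd1* is to *Tnnt1*. Outside the troponins, 22 genes were closer to *Tnnt2* than *Tnnt1* was, and 2 were closer to *Tnni1*. By this measure *Tnnc1* was not close to them, and its nearest member, *Tnni2*, stood at an RMS of 0.398 with 6560 other genes closer. The measure also depends on how widely a gene varies. *Tnnc1* ranged over 1.10 in log2(TPM + 1), against 2.11 for *Tnnt1* and 0.32 for *Tnni2*. *Tnnc1* was highest in *Uba1* replicate 1 and NT replicate 3, as *Tnnt1* was, but lowest in NT replicate 4 rather than *Uba1* replicate 2.

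A list of 14 genes of immature or denervated muscle, such as embryonic and neonatal myosins, fusion proteins and the fetal acetylcholine receptor, followed the same muscles. Of its 12 genes tested, 1 was above 0, against 81.8% of all genes, and the median log2FC was -0.52. Without pairing, 0 passed an adjusted or unadjusted p, where 16.0% of all genes were higher and 1.98% lower at the unadjusted p. With the replicate block, 1 was higher and 3 lower at the unadjusted p, where 22.4% of all genes were higher and 2.80% lower. In pair 1, 12 of 12 were higher in the *Uba1* leg, and in pairs 2, 3 and 4 only 1 of 12 was, each time *Myod1*, the myogenic transcription factor (log2FC 0.34). Without *Actc1*, which dominates the list, its summed level was 207 TPM in NT replicate 3, 178 in *Uba1* replicate 1, 150 in *Uba1* replicate 3, 126 in NT replicate 1, 119 in NT replicate 4, 112 in NT replicate 2, 87.6 in *Uba1* replicate 4 and 64.4 in *Uba1* replicate 2. The level of *Tnni1* put the 8 muscles in this same order. With *Actc1* included, the sums were 2278 TPM in NT replicate 3, 1971 in *Uba1* replicate 3 and 1858 in *Uba1* replicate 1, so that the latter 2 changed places, and the others kept their order down to 253 TPM in *Uba1* replicate 2. *Mymx*, the fusion protein myomixer, had a log2FC of -0.66 and *Gadd45a*, a gene raised by denervation, of -0.33.

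Genes of slow fibers other than troponins were on both sides. Of 13 listed, 12 were tested, 7 were above 0 and the median log2FC was 0.07. Of all genes tested, 81.8% were above 0, with a median of 0.11. The summed level of the list was 1121 to 1328 TPM in NT muscles and 1362 to 1449 TPM in *Uba1* muscles, without overlap. Most of this sum was *Mybpc1*, at 939 to 1164 TPM, which did not overlap either. Such a gap, higher with *Uba1* siRNAs, was seen in 6.88% of the genes above 0 in at least 1 muscle. *Mybpc1*, slow myosin-binding protein C, had a log2FC of 0.19 (unadjusted p = 0.0115, limma adjusted p = 0.182), and the stretch-responsive *Ankrd2* of 0.44. In *Uba1* replicate 2, where *Tnni1* was lowest, the slow light chain *Myl3* was at its highest, 43.2 TPM, against 10.9 TPM in NT replicate 3, where *Tnni1* was highest. The RMS between *Myl3* and *Tnni1* was 1.46, rank 11512 of 11523 genes by closeness. *Casq2*, the slow and cardiac calsequestrin, was the list's gene nearest to *Tnni1* (RMS 0.552, rank 106). *Myl3* and *Casq2* were picked after their values were seen.

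**Figure D4:**
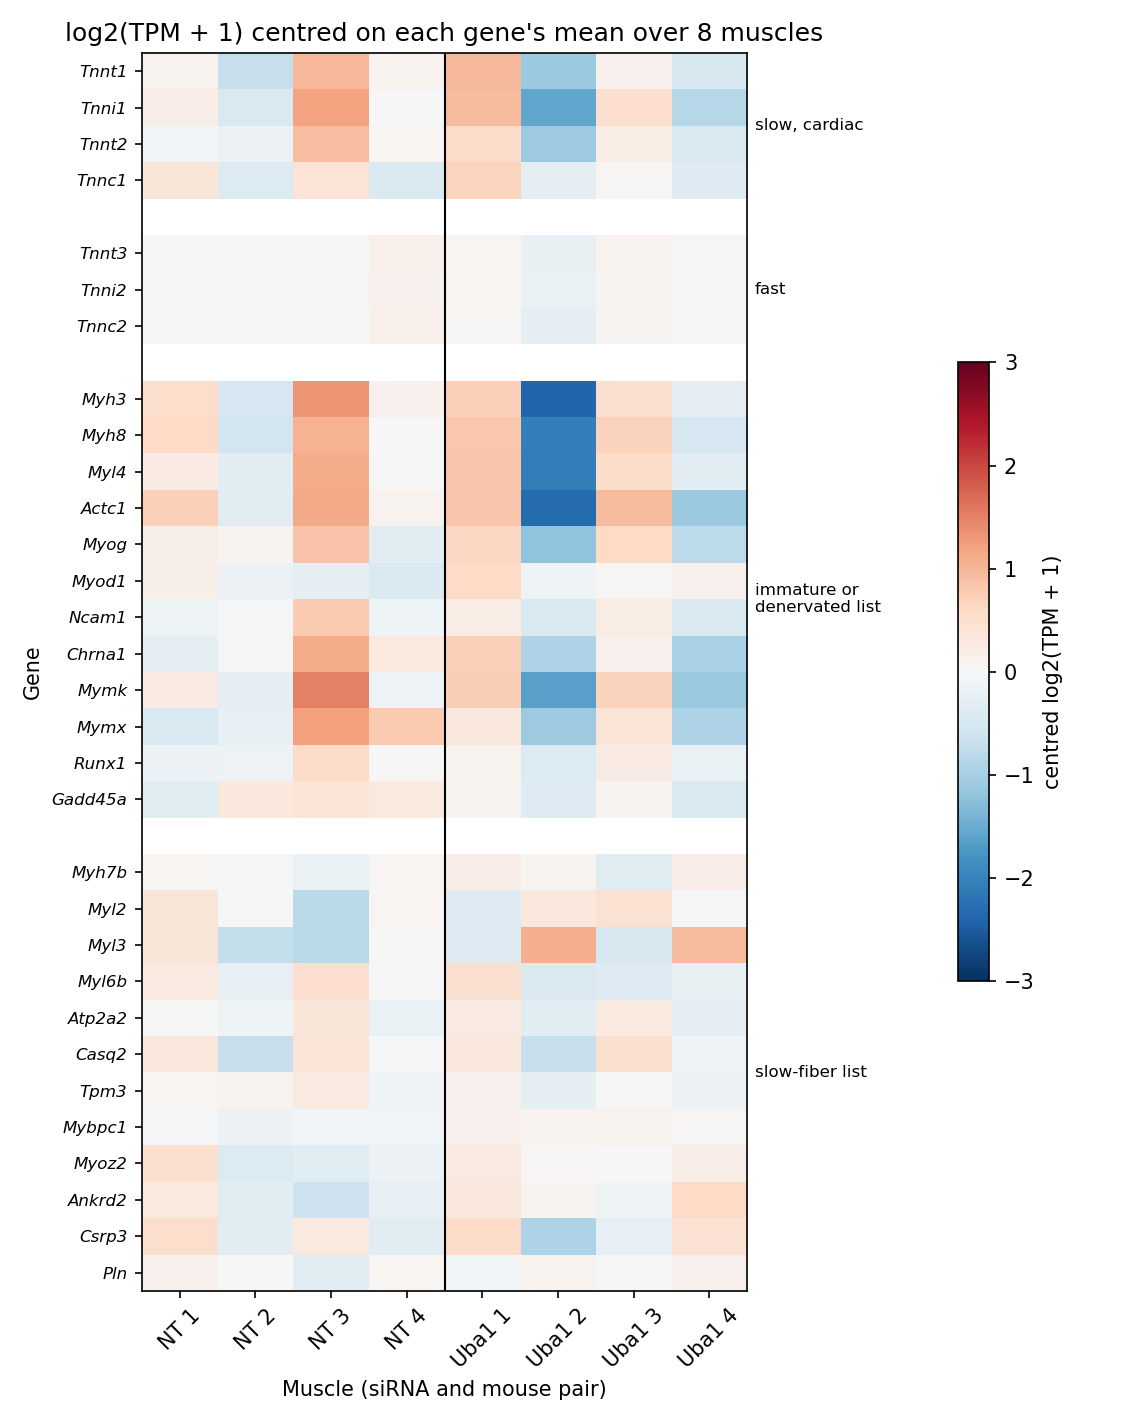
Centered log2(TPM + 1) of the tested troponin genes and of the immature or denervated and slow-fiber lists in the 8 muscles, red above and blue below each gene's mean. Tnnt1, Tnni1 and Tnnt2 are highest in NT 3 or next to it in Uba1 1 and lowest in Uba1 2, as are most genes of the immature list, whereas Myl3 is highest in Uba1 2.

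No other gene of the thin filament passed the adjusted p without pairing. Of 15 genes for actins, tropomyosins, nebulin and their partners, 5 were above 0, none passed an unadjusted p and the median log2FC was -0.07. Of all genes, 81.8% were above 0, and 16.0% were higher and 1.98% lower at the unadjusted p. The 3 with the smallest p were *Klhl40*, a stabilizer of the thin filament (log2FC -0.21), and the tropomyosins *Tpm3* (-0.16) and *Tpm1* (-0.16). After median-ratio scaling, 1 of the 15 was above 0 and 8 were lower at the unadjusted p, where 6.70% of all genes were lower. The leiomodin *Lmod2*, which lengthens thin filaments, had a log2FC of -0.31 and was lower in 4 of 4 pairs. Its limma adjusted p was 0.489 without pairing, 0.112 with the replicate block and 0.0403 with the block and median-ratio scaling together, where 0.720% of all genes passed. It was named after its values were seen. Of 12 fast-fiber genes, 2 were above 0, and the calcium buffer *Pvalb* (-0.32), the light chain *Mylpf* (-0.32) and the 2A myosin *Myh2* (0.55) had the smallest p. None passed, and 4 were lower at the unadjusted p after median-ratio scaling, against the same 6.70% of all genes.

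Among 20 regulators of fiber type, 19 were tested, 3 were higher and 1 lower at the unadjusted p, where 16.0% of all genes were higher and 1.98% lower, and 0 passed the adjusted p. *Ppargc1a*, the coactivator PGC-1α of oxidative genes, had a log2FC of 0.39 (limma adjusted p = 0.168). *Tead1*, an MCAT-binding factor, had 0.37 (limma adjusted p = 0.187), and *Rcan1*, a target and inhibitor of calcineurin, -0.47 (limma adjusted p = 0.177). After median-ratio scaling, 0 were higher and 3 lower, where 3.92% of all genes were higher and 6.70% lower. Of 5 ubiquitin ligases of the sarcomere, *Fbxo32* (atrogin-1) had a log2FC of 0.35 (unadjusted p = 0.0292, limma adjusted p = 0.236), *Trim63* (MuRF1, known to bind cardiac troponin I) -0.26 and *Trim32* 0.14, and 0 passed the adjusted p.

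Markers of other cells were counted on the scale where 81.8% of all genes were above 0, a share of 48.0% after median-ratio scaling. Fibroblast markers were above 0 in 4 of 4, the highest being *Col1a1* (log2FC 0.57) and the lowest *Dcn* (0.17), and summed to 271 to 517 TPM in NT muscles and 381 to 642 TPM in *Uba1* muscles. The 4 smooth muscle markers were below 0, from *Acta2* (-0.24) to *Cnn1* (-0.48). Leukocyte markers were 2 of 4 above 0, from *Cd68* (-0.30) to *Itgam* (0.20). Their sum was highest in *Uba1* replicate 3 (337 TPM, of which *Lyz2* was 304) and in NT replicate 3 (318 TPM). It was lowest in *Uba1* replicate 2 (94.8 TPM) and NT replicate 4 (97.9 TPM). *Tnni1*, *Tnnt1* and *Tnnt2* were highest in NT replicate 3, next in *Uba1* replicate 1 (leukocyte sum 231 TPM), and lowest in *Uba1* replicate 2. Satellite cell markers were 3 of 4 above 0, from *Myf5* (-0.04) to *Cdh15* (0.30), and summed to 14.2 TPM (NT replicate 4) to 23.3 TPM (*Uba1* replicate 1), with 20.03 TPM in NT replicate 3 and 20.27 TPM in *Uba1* replicate 2. Endothelial markers were 3 of 4 above 0, from *Pecam1* (-0.01) to *Kdr* (0.22), Schwann cell markers 1 of 3, and tendon markers 2 of 2, *Tnmd* (0.22) and *Scx* (0.42). None of these genes passed the adjusted p. The part of other cells in the troponin values was not tested.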

How the data were processed

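Total mRNA of 8 TA muscles was sequenced by the authors as paired-end Illumina reads, which they trimmed and aligned to GRCm39 in CLC Genomics Workbench. The deposited values are TPM per gene. The annotation and the treatment of reads that match several genes are not given in the sources used here. Since TPM do not hold read totals, depth is unknown beyond the smallest whole reads that fit the 5 slow and cardiac genes.

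Here, log2(TPM + 1) was computed, and genes reaching 1 TPM in 4 of 8 muscles were tested with limma 3.58.1 in R 4.3.3 (eBayes with trend, no covariates), with Benjamini-Hochberg adjustment over all 11530 genes. Single values were compared by exact permutation tests, two-sided, which ignore the pairing of the legs. P-values measure the spread between these muscles. The pairing comes from the sample titles, where the same number marks both legs of a mouse. Deviations from the group means correlated at -0.000368, 0.201, 0.584 and 0.537 in pairs 1 to 4.

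The members and the gene lists were chosen with earlier results of these data known. Named genes were the 8 members and *Uba1*, the 3 smallest p of each of 6 muscle lists, the highest and lowest log2FC of each list of other cells (not reported here for Schwann cell markers), and the 2 genes nearest to each of the 3 most variable members. Alternatives were another pseudocount, no filter or a mean of 5 TPM, median-ratio scaling, quantile normalization, rescaling without mitochondrial genes, the replicate block with and without median-ratio scaling, the Wilcoxon test and leaving out each muscle. Leaving out both muscles of a mouse was chosen after seeing the data. The smallest exact p that 4 muscles against 4 can give is 0.0286 when the pairing of the legs is ignored.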

Additional observations from a re-analysis of the deposited data

Results flagged for a closer look

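In each group of 4 muscles, the gap of the highest or lowest muscle to its neighbor was compared with the whole range and with the 95% limit of Dixon's test. Of 74 groups searched, 8 had such a muscle, where chance would give about 1 in 20, or 3.7, among independent groups. NT replicate 4 stood above the other NT muscles in all 3 fast genes, with 18838 TPM of *Tnnt3*, 8666 TPM of *Tnni2* and 18717 TPM of *Tnnc2*. These values come from 1 library and are not independent. NT replicate 3 stood above the other NT muscles for *Tnnt2* at 5.15 TPM, for the cardiac share of troponin T at 0.0301%, and for 2 genes near to the troponins in profile, *Lincmd1* at 3.77 TPM and *Tubb2b* at 8.30 TPM. The share restates *Tnnt2*, and *Lincmd1* and *Tubb2b* were searched because their profiles resemble those of *Tnnt1* and *Tnnt2*, so these 4 values are not separate either and the count of 8 cannot be set against chance. For *Trim63*, *Uba1* replicate 1 stood below the other *Uba1* muscles at 169 TPM.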

How the results depend on the processing

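No alternative brought a troponin gene past the adjusted p. The Wilcoxon test could hardly have done so, since its smallest p is 0.0286 before adjustment over 11530 genes. Over the alternatives of all 7 genes, 135 log2FC did not change sign and 11 reversed. *Tnni2* was at 0 with quantile normalization. *Tnnt3* turned to 0.0179 with quantile normalization. *Tnnt1* ran from -0.621 to 0.0795 with a muscle left out (0.0375 without NT replicate 3, 0.0795 without *Uba1* replicate 2). *Tnnc1* turned to -0.0882 with median-ratio scaling, with or without the replicate block, and to -0.0889 with quantile normalization, ran from -0.19 to 0.17 with a muscle left out (-0.10 without NT replicate 2, -0.11 without NT replicate 4, -0.19 without *Uba1* replicate 1), and was -0.0652 without mouse pair 1 and -0.0119 without pair 2. The number of troponin genes above 0, 1 of 7, was 2 of 8 with no filter, where *Tnni3* enters the test, 0 of 7 with median-ratio scaling, 0 when the replicate block was added to that scaling, 0 to 2 with a muscle left out, and 0 without mouse pair 1 or pair 2. The number of all genes past the adjusted p, 3, was 11 at a mean of 5 TPM, 28 with median-ratio scaling or quantile normalization, 14 without mitochondrial genes, 57 with the replicate block, 83 with the block and median-ratio scaling, 0 with the Wilcoxon test, 2 to 39 with a muscle left out (39 without *Uba1* replicate 4), and 0, 5, 0 and 16 without mouse pairs 1 to 4. The cause was not tested. The replicate block changed no call of a troponin gene. With a muscle left out, *Tnni1* ran from -0.863 to -0.0287 and *Tnnt2* from -0.612 to -0.0591, and *Tnnt2* was -0.588 with a pseudocount of 0.1. Among the listed genes, *Lmod2* passed with the block and median-ratio scaling together. The cardiac share of troponin I with NT siRNAs was 0.00215% with quantile normalization.

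At the unadjusted p, median-ratio scaling (3.92% of all genes higher, 6.70% lower, 48.0% above 0) gave, of thin-filament genes, 1 above 0 and 8 lower; of slow-fiber genes 0 higher and 1 lower; of fast-fiber genes 4 lower; of regulators 7 above 0, 0 higher and 3 lower; of immature genes 1 lower; of ligases 0 higher and 1 lower; of satellite cell and tendon markers 0 higher; of smooth muscle markers 3 lower; of endothelial and leukocyte markers 1 above 0 each; and of Schwann cell markers 2 above 0. With the replicate block (22.4% of all genes higher, 2.80% lower), 2 thin-filament genes were lower, 2 slow-fiber genes higher, 1 immature gene higher and 3 lower, 1 ligase lower, 2 smooth muscle markers lower and 3 fibroblast markers higher. For *Tnni3*, 5 to 10 fitted reads a muscle limit the comparison, and TPM give no depth for the fast genes.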
